A study of Anthurium andraeanum with 18 samples.

Results

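The comparison described here is between leaves of the Anthurium andraeanum cultivar Oregon kept at 4 °C and leaves of the same cultivar kept at 25 °C, over all the genes that could be tested. It takes 6 of the 18 libraries of the study, 3 at each of these temperatures. They were chosen by the cultivar and treatment labels, with no use of measured values. All plants were in full flower and grew in chambers with a day of 12 h and a night of 12 h. Plants of the cold group passed through steps of 3 days each, first at 15 °C, next at 6 °C and last at 4 °C, before their leaves were taken, while the control plants stayed at 25 °C. The temperature of 4 °C was therefore also the end of the longest cold treatment. The controls carry a time label of 0 days, but 3 days stands in the titles of those from Oregon, so the age and collection day of controls and cold leaves cannot be compared from the labels, and the time of day is not given. The 3 libraries of a group are labelled biological replicates, and the labels do not say if a library is 1 plant or a pool. The p-values therefore measure the spread between libraries within groups, estimated over all 18 libraries together. The study also took Oregon leaves after the days at 6 °C, and leaves of a second cultivar, Fantasy Love, at 25, 6 and 4 °C, with 3 libraries in each group. These are used below only to show where Oregon at 4 °C differs from them.

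Anthurium is an evergreen tropical aroid grown for its coloured spathe, and tropical plants are injured by chilling temperatures above freezing. In plants in general, cold stiffens membranes and slows enzymes more than it slows the capture of light, so leaves in the cold tend to absorb more energy than they can use. Leaves of many species answer with changes in light harvesting, soluble sugars, chaperones, fatty acid desaturation and water transport, driven in part by calcium, hormone and transcription factor signals. Cold-hardy species such as Arabidopsis thaliana use CBF factors to switch on protective proteins. Gene roles given below come mostly from Arabidopsis and rice, and the names come from similarity of the assembled sequences to proteins of other species.

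The authors deposited estimated read counts for 132108 transcript groups assembled without a genome, each called a gene here. After a filter on low counts 51670 genes were tested, of which 25020 had a protein name. Levels are given in CPM, counts set against the scaled total of their library and not against gene length, so they are compared between libraries and not between genes. A gene is said to rise or fall where edgeR's quasi-likelihood test gave a Benjamini-Hochberg adjusted p below 0.05 over all genes tested and a log2 fold change of at least 1 in size. Where ± follows a level it is the SD of n = 3 libraries, and where it follows a log2 fold change it is the standard error. Most genes named with values were chosen by level among called genes whose 3 values in the cold lay all above or all below the 3 control values, so the lack of overlap in them is not itself a result. Gene identifiers are printed without the prefix TRINITY_.

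The 18 libraries held 14769978 to 21911157 estimated counts. The 3 Oregon libraries at 4 °C held 16676741, 21911157 and 21471717, and the 3 at 25 °C held 17121870, 20230846 and 17303729. At 4 °C 88785 to 98570 genes had at least 1 count, against 66093 to 72356 at 25 °C, and the 100 most abundant genes took 14.1 to 17.5% of the counts in place of 27.8 to 29.2%. Within each of the 2 groups, log2 levels correlated across genes at 0.974 to 0.988. Among the 9 Oregon libraries the first principal component, with 77.1% of the variance, set the 3 controls apart from the 6 cold libraries, and the second, with 8.23%, set 4 °C apart from 6 °C. One Oregon library stands apart. Replicate 3 at 4 °C held 59302 counts, 0.276% of its total, in 4 genes named as hemoglobin subunits, which are blood proteins of animals. The other 17 libraries held 0 to 113 in these genes. In replicate 3 the share of counts in named genes without a plant protein match was 0.386%, against 0.0138 to 0.0666% in the other 17. Of the genes tested 1024 have a vertebrate protein as their closest Swiss-Prot match. Several results that rest on them or on this library are given with and without them. Other lists are given only with them, among them the histones, the cytoskeleton genes and the ubiquitin ligases. The leaf label was checked on 3 defining markers, and each was present in all 6 libraries. Antenna proteins summed to 59073 to 78497 CPM at 25 °C and to 606 to 850.2 CPM at 4 °C, the rubisco small chain to 10759 to 12563 and 7225 to 10738 CPM, and phosphoribulokinase to 1219 to 1372 and 321 to 400 CPM.

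At 4 °C 14674 of the 51670 genes tested rose (28.4%) and 10643 fell (20.6%). Over all genes the median log2 fold change was 0.39 under edgeR's TMM scaling, 0.48 under the size factors of DESeq2 and 0.05 after quantile normalisation, so changes of that size depend on the scaling. Rises and falls numbered 12720 and 12101 after quantile normalisation, and 8472 and 7822 at a minimum of 50 counts in 3 libraries. The excess of rises over falls was therefore smaller in those settings. Many changes were large. At least 32-fold rises were seen in 4175 of the called genes and at least 32-fold falls in 1755. Genes with a protein name fell more often than they rose: 5258 of them rose (21.0%) and 6978 fell (27.9%), with a median log2 fold change of -0.17. Genes without a name rose more often, with 9416 rises, 3665 falls and a median of 1.29. The low-count filter took in more cold groups than controls, so genes absent from the controls could enter and only be called higher. Of 4422 tested genes at 0 counts in all 3 controls 2824 were called as higher, 454 of them named. Their part in the excess of unnamed rises was not tested. The gap between named and unnamed genes was present at every length. Among genes of 201 to 300 bases 21.0% of the named and 24.6% of the unnamed ones rose. Among genes of over 2000 bases 19.9% of the named and 55.1% of the unnamed ones rose. The members of the gene lists below all have a name, so each count stands beside 21.0% rises and 27.9% falls over named genes and 28.4% and 20.6% over all genes. In 15 of the 90 lists both shares lay within 5 percentage points of 1 of these backgrounds, a margin chosen after the values were seen, and their counts are no result about the list. Near the shares over all genes lay chlorophyll breakdown, ethylene synthesis, phospholipases, abscisic acid receptors with PP2C and SnRK2, calcium channels, MAP kinases, the lectin and related receptor kinases, the zinc finger proteins and the homeobox factors. Near those over named genes lay glycerolipid synthesis, sterol and sphingolipid enzymes, the catalase list, ethylene perception, U-box and RING ligases, cyclins with their kinases and again the homeobox factors.

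**Figure D1:**
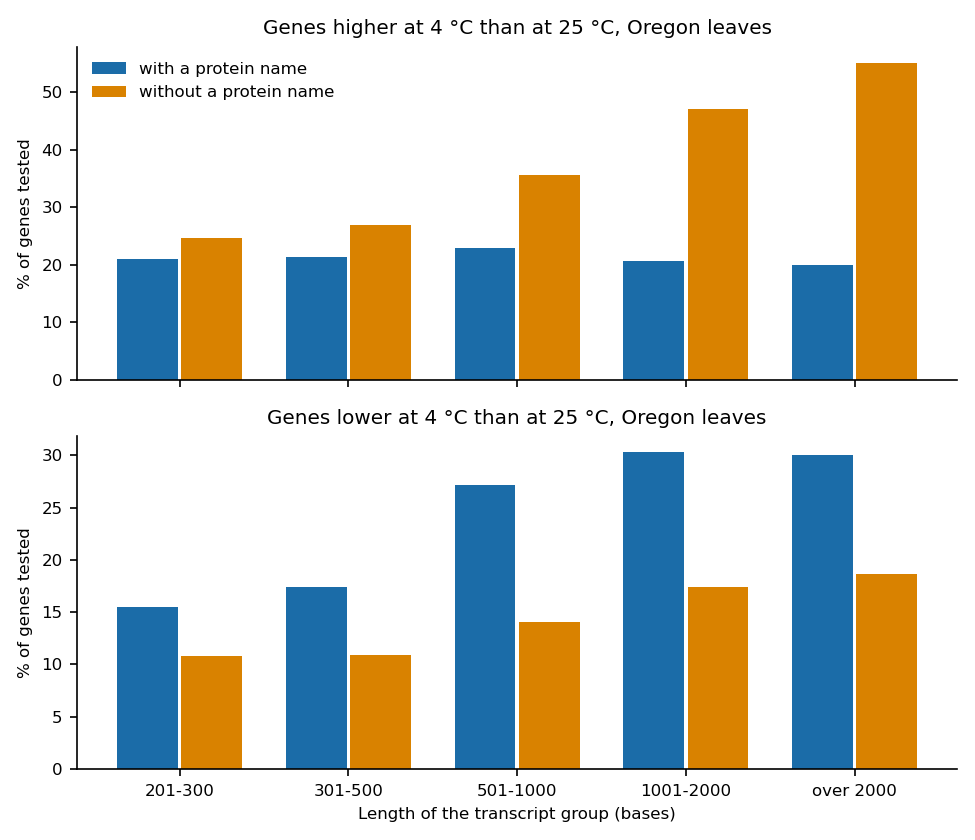
Share of tested genes that rose (upper panel) or fell (lower panel) in Oregon leaves at 4 °C against 25 °C, in percent, by length of the transcript group in bases, for genes with and without a protein name. Among unnamed genes the share that rose goes from 24.6% in the shortest class to 55.1% in the longest, while in named genes it stays between 19.9 and 23.0%.

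**Figure D2:**
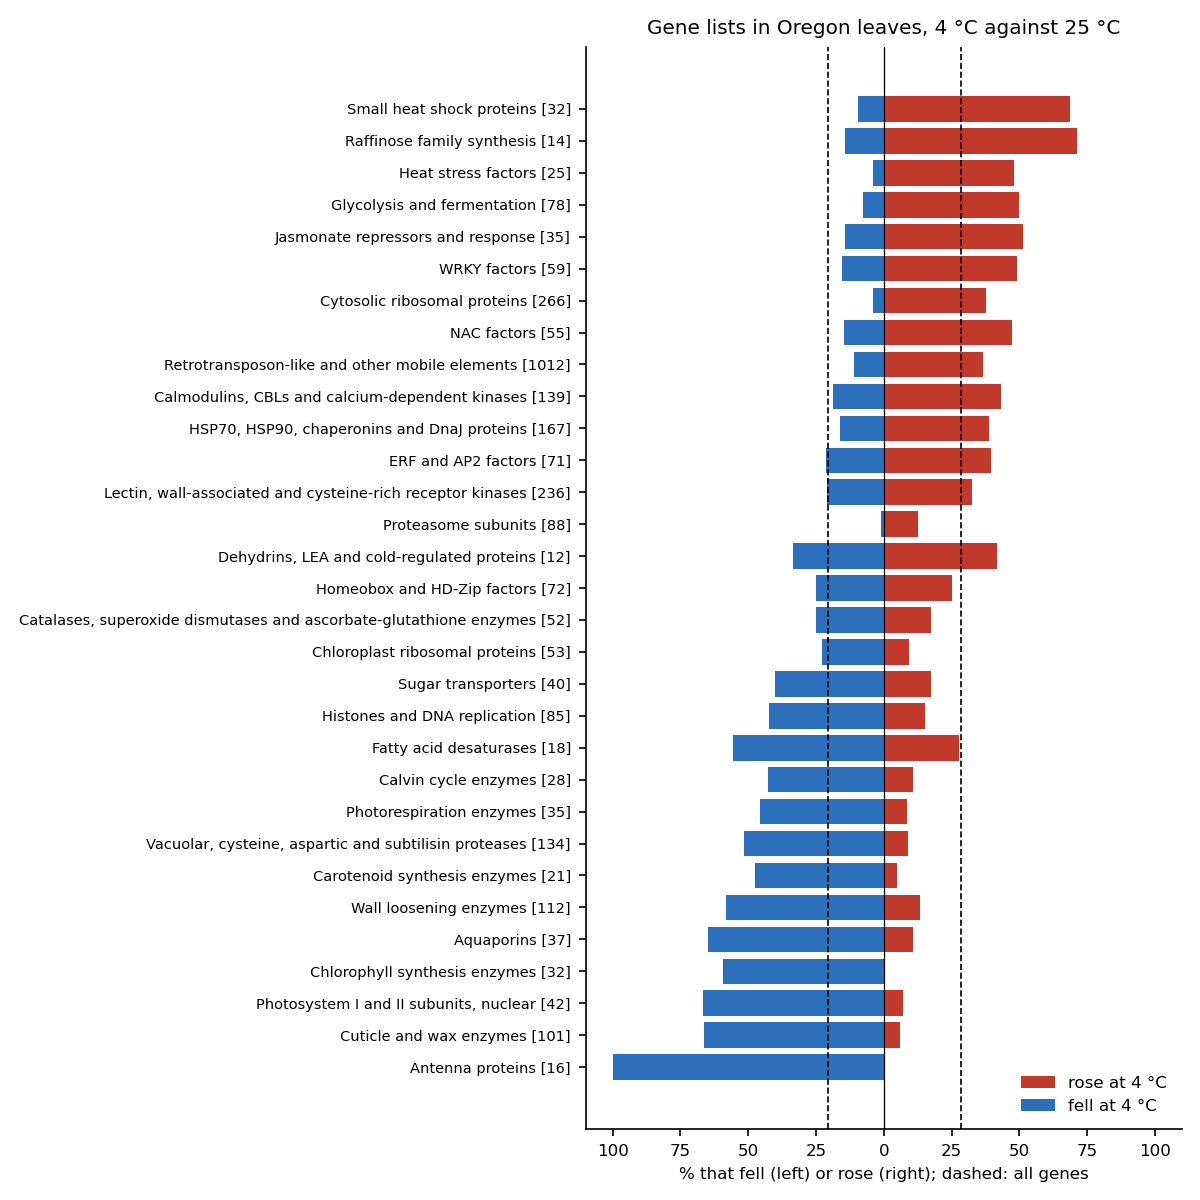
Percent of the tested members of 31 of the 90 gene lists that rose (bars to the right) or fell (bars to the left) in Oregon leaves at 4 °C against 25 °C, with the number of members tested in brackets. The dashed lines mark the shares over all genes tested, 28.4% higher and 20.6% lower, and antenna proteins are the list among these in which every member fell.

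Small heat shock proteins, which bind unfolding proteins and keep them from clumping, rose strongly. Of 32 tested, 22 rose and 3 fell, and their median log2 fold change was 6.23. Summed over the list, their level was 836, 816 and 699 CPM in the 3 control libraries and 13919, 13513 and 18389 CPM in the 3 cold ones. The mitochondrial HSP23.6 (DN46798_c1_g4) went from 12.2, 9.49 and 5.70 CPM at 25 °C to 4322, 4373 and 5154 CPM at 4 °C, the highest mean CPM at 4 °C among named genes that rose. Its log2 fold change was 8.98 ± 0.63 (adjusted p = 9.18e-09). The chloroplast HSP26.7 (DN46690_c0_g2) went from 42.5, 35.5 and 31.4 to 2067, 2176 and 3437 CPM (log2 fold change 6.13 ± 0.89, adjusted p = 1.98e-05). Both were chosen among genes whose groups did not overlap, so only the size of the gap is informative. HSP21.9 (DN53372_c1_g1) was near the limit of detection at 25 °C, with 0.991, 1.75 and 0.872 CPM, and stood at 1109, 964 and 1087 CPM in the cold. The class I protein HSP17.5-M (DN32902_c0_g5) went from a mean of 0.142 ± 0.245 to 126 ± 50.8 CPM. Among the 3 members that fell was the class I protein HSP18.2 (DN49792_c0_g1), from 18.03 ± 2.24 to 4.71 ± 1.66 CPM. The member with the highest CPM at 25 °C among those that fell, HSP18.1 (DN36018_c0_g2), fell from 109 ± 12.1 to 50.7 ± 5.02 CPM, and this call does not hold in 11 of the other settings tried.

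**Figure D3:**
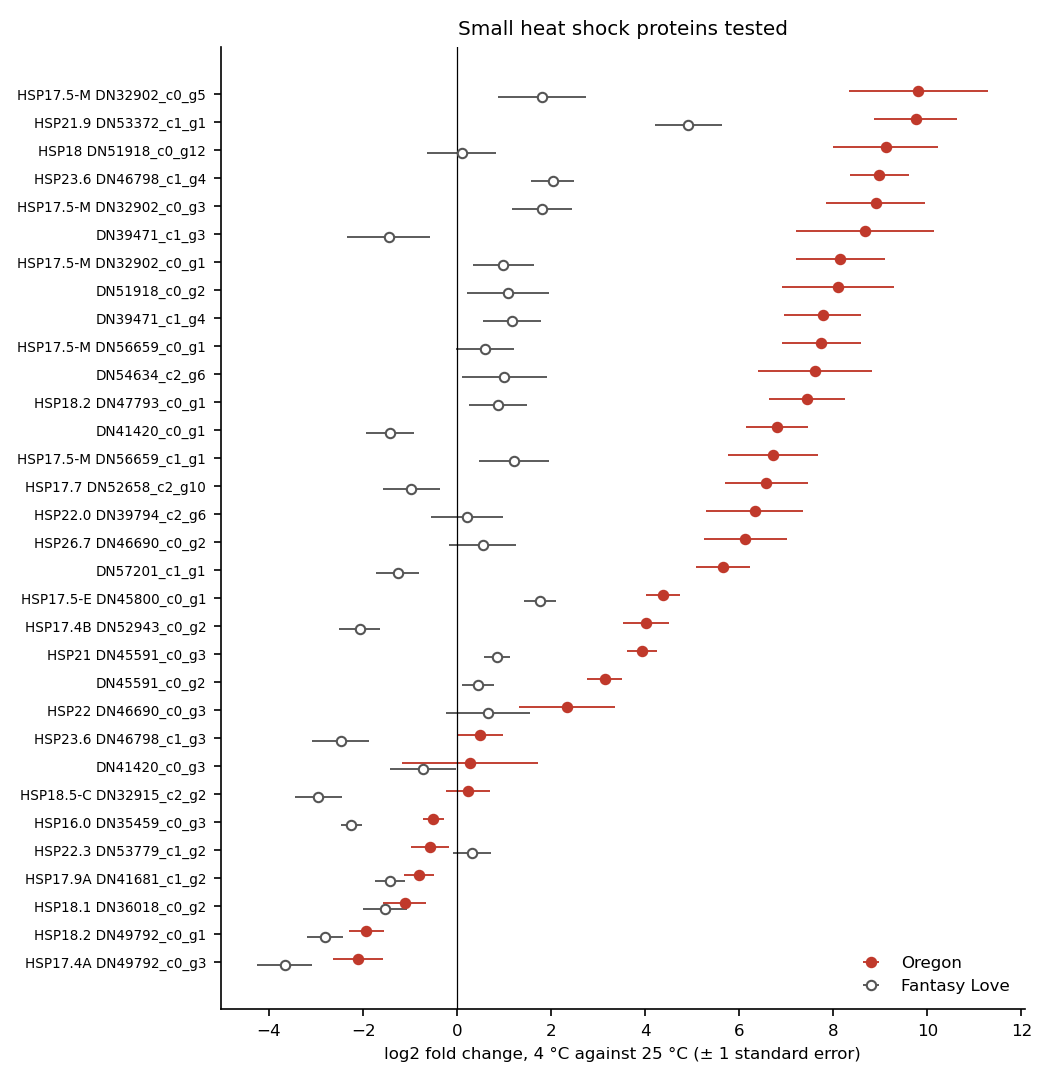
Log2 fold change from 25 °C to 4 °C of each of the 32 small heat shock proteins tested, in Oregon (filled points) and in Fantasy Love (open points), with bars of 1 standard error. Members are ordered by the Oregon value; in 31 of the 32 genes the Oregon point lies to the right of the Fantasy Love point.

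The rise of the small heat shock proteins was larger in Oregon than in Fantasy Love. In the test of the difference between the changes of the 2 cultivars, which called 5.04% of all genes as more positive and 3.86% as more negative in Oregon, 25 of the 32 members were more positive and 0 more negative. In Fantasy Love itself 4 rose and 10 fell, with a median of 0.38. The controls differed as well: summed over the list, the 3 Fantasy Love libraries at 25 °C held 3683, 2470.1 and 12401 CPM and those at 4 °C held 6951, 8063 and 7186 CPM, so its controls already stood above those of Oregon. HSP23.6 (DN46798_c1_g4) was at 289, 159.6 and 604 CPM in the Fantasy Love controls and at 1314, 1717 and 1277 CPM at 4 °C, with a difference between the cultivars' log2 changes of 6.95 ± 0.70 (adjusted p = 1.97e-05).

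The larger chaperones showed a mixed picture. Of 167 HSP70, HSP90, chaperonin and DnaJ genes 65 rose and 27 fell, and 36 were more positive in Oregon than in Fantasy Love against 6 more negative. Without the 22 members that match a vertebrate protein, 55 rose and 24 fell. The riser with the highest mean CPM was the DnaJ protein DNAJ1 (DN54882_c0_g1), a partner of HSP70, from 163, 193 and 185 to 2659, 1811 and 2105 CPM (log2 fold change 3.60 ± 0.36). CLPB1 (DN56273_c1_g1), the disaggregase that works with HSP70 to dissolve protein clumps, went from 104, 93.9 and 105 to 1447, 994 and 1762 CPM, with a log2 change 3.53 ± 0.54 above that of Fantasy Love. A heat shock cognate HSP70 (DN38484_c1_g5) fell from 692 ± 84.8 to 189.5 ± 49.2 CPM. Another gene with the same protein name (DN56739_c2_g1) rose from 41.1, 39.8 and 42.5 to 1382, 851 and 1218 CPM. Heat stress factors, which switch chaperone genes on, rose in 12 of 25 cases and fell in 1. HSFA3 (DN54590_c1_g2), which acts downstream of DREB2 factors in Arabidopsis, went from 21.02, 10.8 and 15.9 to 2515, 898 and 1113 CPM (log2 fold change 6.57 ± 0.53, adjusted p = 4.02e-08). HSFC1 (DN38858_c0_g2) was at 0.776 ± 0.187 CPM in the controls and at 174 ± 8.08 CPM in the cold. The single member that fell was HSFA1 (DN51163_c0_g5), from 11.8 ± 1.03 to 2.02 ± 0.579 CPM.

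All 16 antenna proteins tested, which hold the chlorophyll that collects light, fell, with a median log2 fold change of -6.78. The table holds 22 genes with such a name, and 1 more of them passed the filter on low counts and was called as higher without any 1 of the controls or without replicate 1 at 4 °C. An LHCII type I protein (DN35270_c0_g1) stood at 13441, 11259 and 9403 CPM in the 3 control libraries and at 23.8, 10.4 and 17.9 CPM in the cold. LHCB3 (DN36170_c0_g2), which joins antenna trimers to photosystem II, went from 2516, 2406 and 2009.7 to 2.11, 1.08 and 1.58 CPM (log2 fold change -10.52 ± 0.70, adjusted p = 5e-09). CAB8 (DN55657_c0_g1) went from 10613, 9574 and 7819 to 153, 126 and 135 CPM. These antenna genes too were chosen among those whose groups did not overlap, so only the size of their fall is informative. The cold libraries also differed by temperature: summed antenna levels were 488, 404 and 544 CPM at 6 °C and 850.2, 606 and 790.3 CPM at 4 °C, with no overlap, and no test was made of the sums. These are bulk leaves, so fewer cells of a type and less RNA per cell cannot be told apart. The photosystems' own nuclear subunits fell in 28 of 42 cases and rose in 3. Chloroplast-encoded proteins rose in 10 of 50 cases and fell in 5, or in 11 under quantile normalisation, with psbC (DN41063_c1_g3) of photosystem II rising from 9.13 ± 0.0680 to 22.1 ± 1.55 CPM and psbM (DN50777_c0_g5) falling from 13.7 ± 3.65 to 5.47 ± 1.92 CPM. Among the nuclear subunits, PSBR (DN47334_c0_g4), which helps to hold the oxygen-evolving complex, fell from 4425 ± 496 to 518 ± 28.5 CPM, and PSBQ1 (DN52658_c2_g2), a subunit of that complex, from 4382 ± 694 to 236 ± 51.1 CPM.

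**Figure D4:**
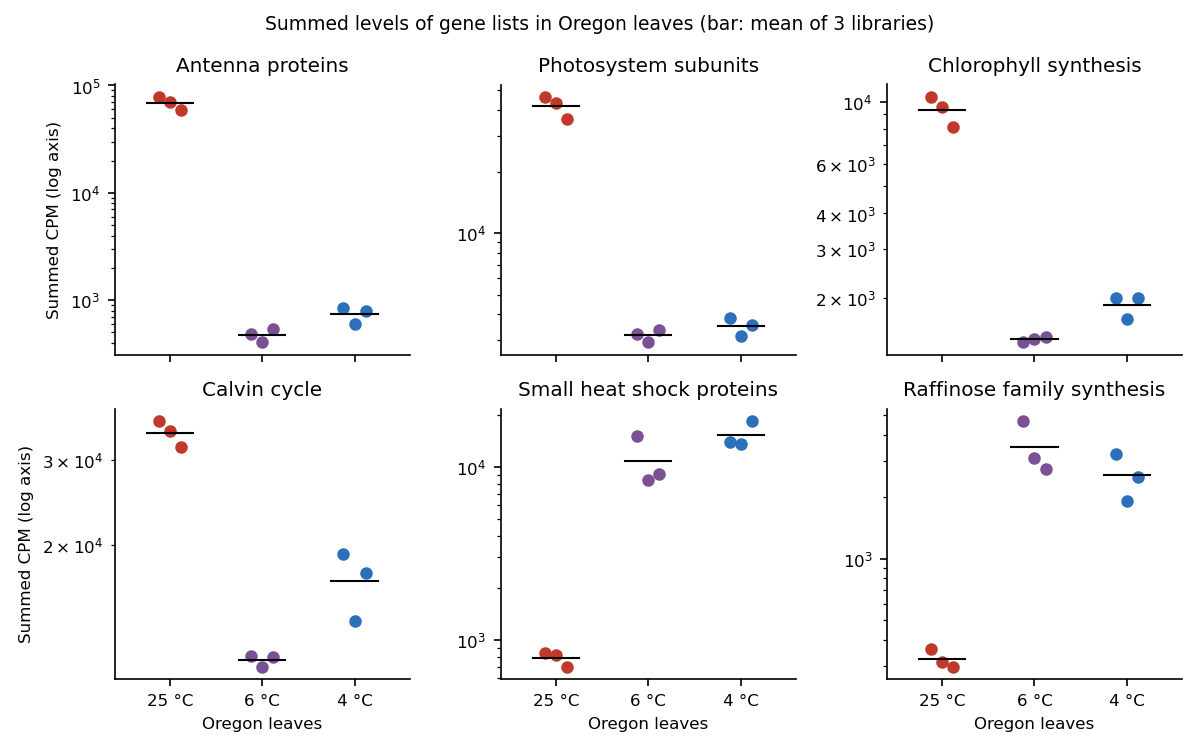
Summed level in each Oregon library at 25, 6 and 4 °C (CPM, log axis; 1 point per library) of antenna proteins, photosystem subunits, chlorophyll synthesis, Calvin cycle, small heat shock proteins, and raffinose family synthesis. The antenna sum drops from 59073 to 78497 CPM at 25 °C to 606 to 850.2 CPM at 4 °C, while the small heat shock sum moves the other way.

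Electron carriers of the chloroplast fell in 17 of the 36 and rose in 2. The ferredoxin AP1 (DN49972_c0_g3) fell from 1771 ± 246 to 372 ± 71.6 CPM, and plastocyanin PETE (DN40635_c2_g2), which carries electrons to photosystem I, from 1361 ± 211 to 52.9 ± 7.07 CPM. PNSL5 (DN38425_c0_g1), a subunit of the NDH complex of cyclic electron flow, rose from 209 ± 26.2 to 479 ± 53.6 CPM. Photoprotection and repair genes were mostly not called, with 3 rises and 6 falls among 29. The exception in size was ELIP1 (DN44614_c2_g1), an early light-induced protein that appears in leaves under excess light. It went from 5.95, 21.5 and 7.65 CPM at 25 °C to 317, 574 and 667 CPM at 4 °C (log2 fold change 5.47 ± 0.69), through 107, 75.1 and 127 CPM at 6 °C. All 3 libraries at 4 °C lay above every library at 6 °C, with a log2 difference of 2.33 ± 0.59 (adjusted p = 0.0414). The call against 6 °C was lost without replicate 2 or 3 at 4 °C and without any 1 of the libraries at 6 °C. In Fantasy Love ELIP1 went the opposite way, from 627, 602 and 989 CPM at 25 °C to 239, 130.01 and 190.5 CPM at 4 °C, a change of -1.99 ± 0.59 on the log2 scale, and the difference between the cultivars was 7.46 ± 0.89 (adjusted p = 7.36e-05). FTSH1 (DN55832_c0_g1), a protease that clears damaged photosystem II protein, rose from 471 ± 33.8 to 1119 ± 103 CPM. Violaxanthin de-epoxidase VDE1 (DN47636_c0_g1), which makes zeaxanthin for heat dissipation, fell from 152 ± 15.4 to 32.7 ± 9.08 CPM.

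Lists of pigment synthesis held more falls than rises. Chlorophyll synthesis fell in 19 of 32 cases and rose in 0. CRD1 (DN54145_c0_g1), the cyclase of chlorophyll synthesis, fell from 1676, 1697 and 1373 to 35.2, 37.97 and 45.8 CPM (log2 fold change -5.32 ± 0.49). CHLH (DN49634_c0_g1), the magnesium chelatase subunit, fell from 1504 ± 127 to 124 ± 30.3 CPM. In the chlorophyll breakdown list 6 of 20 rose (30.0%) and 5 fell (25.0%), shares near those over all genes. SGR (DN38584_c0_g5), the STAY-GREEN protein that removes magnesium from chlorophyll, went from 0.708, 0.423 and 2.48 to 433, 395 and 250.3 CPM (log2 fold change 8.22 ± 0.92, adjusted p = 1.24e-06), through 1082, 1181 and 728 CPM at 6 °C. For SGR the libraries at 6 °C lay above those at 4 °C. PPH (DN56595_c4_g1), the next enzyme of the pathway, rose from 22.8 ± 0.665 to 112 ± 11.9 CPM. The chlorophyllase CLH2 (DN41893_c0_g2) fell from 205, 409 and 207 to 2.59, 1.08 and 0.657 CPM. Carotenoid synthesis fell in 10 of 21 cases and rose in 1, which was PDS1 (DN53128_c1_g1), from 43.03 ± 3.01 to 97.02 ± 12.5 CPM. Phytoene synthase PSY (DN56177_c0_g2), the entry step, fell from 252 ± 20.3 to 99.9 ± 7.26 CPM. Flavonoid and anthocyanin enzymes fell in 22 of 55 cases and rose in 3, or in 5 without replicate 3 of the controls and in 1 without replicate 2 of the controls or replicate 1 at 4 °C. The flavonoid hydroxylase CYP75A6 (DN52475_c1_g1) fell from 197 ± 46.4 to 20.2 ± 2.72 CPM. The glucosyltransferase GT7 (DN46079_c0_g1) of that list rose from 9.56 ± 0.978 to 28.5 ± 6.85 CPM.

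Carbon fixation genes fell more often than they rose. Calvin cycle enzymes fell in 12 of 28 cases and rose in 3, with a median of -0.80 beside -6.78 for antenna proteins, and 13 of them were more positive in Oregon than in Fantasy Love, where the median was -2.14. Without any 1 of the 6 libraries 1 enzyme rose in place of 3. The aldolase ALDP (DN53300_c0_g1) fell from 6779, 6394 and 5802 to 626, 574 and 658 CPM. Rubisco activase RCA (DN56471_c1_g2) fell from 9091, 8696 and 8400.5 to 3861, 2753 and 3300.5 CPM, a log2 fold change of -1.40 ± 0.23 that turns positive under quantile normalisation. Photorespiration enzymes, which recover carbon after rubisco has taken up oxygen, fell in 16 of 35 cases and rose in 3. AGT1 (DN56170_c3_g1) of that list fell from 2346 ± 134 to 912 ± 82.8 CPM, and SHM7 (DN45340_c1_g4) rose from 31.1 ± 3.26 to 79.00 ± 5.88 CPM. Starch synthesis fell in 7 of the 17 and rose in 2, and the granule-bound starch synthase WAXY (DN54513_c1_g1) fell from 2546, 2492 and 2778 to 198, 172 and 212 CPM. Starch breakdown rose in 9 of 40 (22.5%) and fell in 7 (17.5%). Its first riser by level was the glucan water dikinase R1 (DN46485_c1_g1), from 84.5 ± 18.4 to 186 ± 18.3 CPM (not called without replicate 1 of the controls), and its first faller a phosphorylase (DN51446_c0_g3), from 151 ± 24.1 to 69.6 ± 8.38 CPM. The beta-amylase BAM1 (DN54800_c0_g1) rose from 1.05 ± 0.541 to 45.5 ± 18.5 CPM.

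The lists of glycolysis, of sucrose and trehalose enzymes and of raffinose family synthesis held more rises than falls. Glycolysis and fermentation genes rose in 39 of the 78 and fell in 6, with a median of 1.16. Cytosolic aldolase FBA3 (DN51115_c0_g3) went from 305, 345 and 334 to 2365, 2128 and 2408 CPM (log2 fold change 2.81 ± 0.22), and the log2 difference from Fantasy Love was 2.17 ± 0.30. Enolase ENO2 (DN55292_c0_g1), a late step of glycolysis, went from 194 ± 13.3 to 1130.5 ± 195 CPM. The plastid pyruvate kinase PKP2 (DN43564_c0_g2) fell from 38.4 ± 3.31 to 16.3 ± 2.68 CPM. Sucrose and trehalose enzymes rose in 30 of 63 and fell in 12. The trehalose-phosphate phosphatase TPPG (DN51509_c0_g1) rose from 9.06, 9.61 and 12.4 to 521, 327 and 352 CPM, and a sucrose synthase (DN54386_c0_g2), which splits sucrose, fell from 282 ± 28.6 to 100 ± 49.9 CPM, a call lost without replicate 2 of the controls or replicate 3 at 4 °C. Raffinose family synthesis, which makes soluble sugars known to protect cells in dryness and cold, rose in 10 of 14 and fell in 2, with a median of 2.59. Galactinol synthase GOLS1 (DN52329_c1_g3), the first step, was at 58.1, 55.5 and 50.4 CPM in the controls and 1134, 639 and 845 CPM in the cold (log2 fold change 3.996 ± 0.49). GOLS2 (DN52329_c1_g6) went from 49.1 ± 4.72 to 528 ± 137 CPM. Sugar transporters held more falls than rises, with 16 falls and 7 rises among 40. STP1 (DN41971_c0_g3) fell from 160.2 ± 16.6 to 46.8 ± 22.1 CPM, a call lost without replicate 1 or 2 of the controls or replicate 2 or 3 at 4 °C. STP13 (DN57281_c1_g1), a hexose importer, rose from 13.6, 17.8 and 18.9 to 338, 245 and 194 CPM, and its libraries at 6 °C held 1130.03, 1416 and 803 CPM.

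Mitochondrial respiration genes rose in 14 of the 98 and fell in 12. Without the 8 that match a vertebrate protein, 9 rose and 12 fell, without replicate 3 at 4 °C 9 rose, and 5 of the risers were more than 3 times as high in replicate 3 as in the other cold libraries. PUMP4 (DN51605_c0_g1), a carrier of the inner membrane named as an uncoupling protein, rose from 93.5, 78.5 and 93.4 to 529, 204 and 198 CPM, whereas its log2 change in Fantasy Love was -3.001 ± 0.46. The difference between the cultivars was 4.81 ± 0.63 (adjusted p = 0.000149). COX6B-2 (DN50524_c0_g1), a subunit of cytochrome c oxidase, fell from 71.9 ± 8.28 to 34.4 ± 4.80 CPM. Of the 12 alternative oxidases and alternative NADH dehydrogenases, which bypass the proton-pumping complexes, 5 rose and 3 fell. NDA1 (DN50233_c1_g1) rose from 2.04 ± 0.0860 to 62.9 ± 7.74 CPM and NDA2 (DN48649_c0_g1) fell from 45.9 ± 2.85 to 15.4 ± 2.96 CPM. The oxidase AOX1A (DN41826_c0_g1) rose from 1.84, 0.846 and 1.61 to 56.6, 63.1 and 63.8 CPM.

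Cytosolic ribosomal proteins rose in 100 of 266 cases and fell in 11, with a median of 0.99. This count rests partly on the library that stands apart: without replicate 3 at 4 °C 66 rose. Of the list, 51 match a vertebrate protein and 23 of those rose, while of the other 215 77 rose and 11 fell, with a median of 0.75. RPL10 (DN55344_c0_g1), a protein of the large subunit, went from 622, 637 and 559 to 2084, 1568 and 1885 CPM, with replicate 3 between the other cold libraries. RPL34 (DN34343_c1_g1) fell from 256 ± 46.2 to 109.99 ± 11.8 CPM. Translation factors rose in 28 of the 143 and fell in 15, or in 24 and 12 of the 131 without a vertebrate match. Elongation factor EF1 (DN50537_c0_g1), which brings charged tRNA to the ribosome, went from 369, 341 and 307 to 2307, 1997 and 2149 CPM, and the initiation factor 1A (DN50505_c2_g1) from 75.5 ± 11.4 to 1009 ± 394 CPM. The RNA-binding protein RBP47 (DN39563_c0_g1) fell from 357 ± 37.1 to 94.4 ± 14.6 CPM. Chloroplast ribosomal proteins fell in 12 of 53 and rose in 5, or in 3 without replicate 3 of the controls or replicate 3 at 4 °C. In the cultivar comparison, where 5.04% of all genes were more positive in Oregon, 18 of the 53 were. RPL1 (DN37484_c2_g1) of the chloroplast fell from 239 ± 51.9 to 66.00 ± 3.60 CPM and RPL4 (DN41600_c1_g3) rose from 95.4 ± 4.22 to 209 ± 25.02 CPM.

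Splicing factors rose in 18 of the 131 and fell in 20, and in 11 and 17 of the 108 without a vertebrate match. SR45A (DN55823_c0_g1) rose from 174 ± 15.8 to 403 ± 59.6 CPM and PRP40A (DN55667_c1_g4) fell from 239.7 ± 9.20 to 107 ± 16.5 CPM. RNA helicases, which unwind RNA that folds too tightly in the cold, rose in 16 of 103 and fell in 14, and 25 rose under quantile normalisation. RH3 (DN50929_c1_g1), a chloroplast helicase, went from 129, 127 and 119 to 478, 514 and 582 CPM (log2 fold change 2.07 ± 0.18) and was also higher at 4 °C than at 6 °C, where the libraries held 247, 228 and 247 CPM. In Fantasy Love its change was 0.04 ± 0.18, and the cultivars differed by 2.03 ± 0.25 (adjusted p = 9.31e-05). The helicase DN43727_c1_g1, named as a splicing factor, fell from 208 ± 25.9 to 59.7 ± 5.98 CPM. Glycine-rich and cold-shock RNA-binding proteins rose in 5 of 31 and fell in 4. A chloroplast ribonucleoprotein (DN48685_c0_g2) rose from 205 ± 14.5 to 420.1 ± 42.8 CPM, a call lost without replicate 2 or 3 of either group, and CP29B (DN50930_c0_g3) fell from 272 ± 33.6 to 39.6 ± 14.96 CPM.

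Among the lists of protein breakdown, the proteases held far more falls than rises. Vacuolar, cysteine, aspartic and subtilisin proteases fell in 69 of 134 cases and rose in 12, with a median of -1.56. CCP2 (DN55879_c1_g4), a cysteine protease, fell from 3754, 3559 and 3094 to 916, 654 and 694 CPM, and an aspartyl protease (DN52836_c2_g2) from 1765, 1279.9 and 2464 to 15.1, 26.3 and 15.9 CPM. The vacuolar processing enzyme of the gamma type (DN49168_c0_g1), tied to programmed cell death and senescence in Arabidopsis, rose from 158, 198 and 188 to 1177, 1406 and 1153 CPM (log2 fold change 2.78 ± 0.36), against 0.63 ± 0.34 in Fantasy Love. Proteasome subunits rose in 11 of the 88 and fell in 1, and most were not called. Their rises numbered 18 to 27 under DESeq2 size factors, the DESeq2 Wald test, quantile normalisation and a fit of genes with a plant protein hit alone. RPN7 (DN50701_c0_g1), a lid subunit, rose from 61.3 ± 8.41 to 169 ± 10.4 CPM, and the faller was an assembly chaperone (DN38960_c1_g2), from 15.2 ± 1.83 to 7.29 ± 1.31 CPM, which was not called without replicate 1 of the controls or without replicate 2 or 3 at 4 °C. U-box and RING ubiquitin ligases rose in 75 of 329 and fell in 102, with RGLG1 (DN40928_c1_g1) rising from 51.5 ± 1.66 to 255 ± 50.6 CPM and PUB33 (DN52882_c2_g2) falling from 467 ± 19.2 to 141 ± 18.1 CPM. Autophagy proteins rose in 4 of 24 and fell in 4, with ATG11 (DN52661_c3_g1) rising from 74.9 ± 6.76 to 206 ± 37.2 CPM and ATG101 (DN42410_c0_g1) falling from 36.4 ± 4.21 to 15.4 ± 2.08 CPM.

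Antioxidant enzymes did not move as 1 block. Catalases, superoxide dismutases and ascorbate-glutathione enzymes rose in 9 of 52 cases and fell in 13. CAT3 (DN47565_c0_g2), a catalase that removes hydrogen peroxide in peroxisomes, fell from 6113, 5253 and 5719.96 to 140.1, 106 and 103 CPM (log2 fold change -5.61 ± 0.84, adjusted p = 2.68e-05). CAT1 (DN55122_c1_g2) fell from 1226 ± 41.2 to 21.4 ± 3.96 CPM. Cytosolic ascorbate peroxidase APX1 (DN56298_c0_g1), which removes hydrogen peroxide with ascorbate, rose from 269.8, 373 and 359 to 743, 668 and 776 CPM (log2 fold change 1.13 ± 0.18), which was not called without replicate 1 of the controls. In Fantasy Love its log2 change was -1.37 ± 0.18, a difference of 2.49 ± 0.26 (adjusted p = 2.32e-05). Thioredoxins, glutaredoxins and peroxiredoxins, which reduce protein disulphides and peroxides, fell in 26 of 74 and rose in 5. A chloroplast thioredoxin M (DN48381_c2_g1) fell from 403 ± 56.8 to 87.7 ± 13.6 CPM and YLS8 (DN46159_c0_g2), a thioredoxin-like protein of the splicing machinery, rose from 139 ± 0.994 to 466 ± 24.4 CPM. Glutathione S-transferases, which attach glutathione to toxic compounds, rose in 15 of 32 and fell in 4. GSTU17 (DN47042_c0_g2) rose from 126, 113 and 123 to 975, 1237 and 993 CPM, 2.01 ± 0.31 more on the log2 scale than in Fantasy Love, and GSTF8 (DN52413_c2_g1) fell from 321 ± 80.7 to 47.5 ± 3.67 CPM. Proline and polyamine genes rose in 12 of 30 and fell in 9. The polyamine oxidase PAO4 (DN47611_c0_g3) rose from 97.01 ± 7.53 to 434 ± 85.6 CPM and a polyamine transporter (DN51017_c0_g3) fell from 53.00 ± 5.78 to 6.17 ± 1.44 CPM.

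Fatty acid desaturases, which add the double bonds that keep membranes fluid in the cold, fell in 10 of 18 cases and rose in 5. FAD7 (DN33719_c0_g1), the chloroplast omega-3 desaturase, rose from 45.4, 86.6 and 56.8 to 825, 412 and 509.5 CPM (log2 fold change 3.21 ± 0.46). One gene named FAD2 (DN44478_c0_g1), which makes linoleic acid, rose from 0.849, 1.15 and 2.75 to 639, 395 and 201 CPM. Falling genes share that step by name, FAD2-2 (DN54855_c0_g2) from 548 ± 133 to 234 ± 88.6 CPM and FAD12 (DN37542_c0_g1) from 533 ± 91.8 to 49.5 ± 12.3 CPM. Glycerolipid synthesis rose in 10 of 46 and fell in 14. SQD2 (DN42739_c1_g1), which makes the sulfolipid of thylakoids, rose from 58.9, 43.3 and 48.5 to 910.02, 242 and 339 CPM and PDAT1 (DN52885_c0_g1), which moves acyl groups from membrane lipid to storage oil, fell from 249.6 ± 34.3 to 69.1 ± 4.40 CPM. Phospholipases and diacylglycerol kinases rose in 19 of 76 and fell in 17, but only 12 rose without replicate 2 of the controls. The phosphatase LPPD (DN44476_c2_g2) rose from 71.1 ± 5.13 to 191 ± 27.4 CPM and phospholipase D alpha 1 (DN43038_c0_g1), an enzyme that cuts membrane phospholipids, fell from 277 ± 14.4 to 72.1 ± 1.48 CPM. Sterol and sphingolipid enzymes rose in 14 of 60 and fell in 19. IPCS2 (DN38848_c0_g4) of sphingolipid synthesis rose from 11.5 ± 1.76 to 167 ± 31.2 CPM and a squalene monooxygenase (DN57181_c0_g2) of sterol synthesis fell from 441 ± 59.4 to 101 ± 21.7 CPM. Fatty acid beta-oxidation rose in 5 of 20 and fell in 3, with ACX3 (DN52992_c2_g1) rising from 166 ± 14.3 to 349 ± 22.7 CPM (not called without replicate 2 of the controls) and AIM1 (DN33593_c3_g1) falling from 11.4 ± 0.831 to 4.20 ± 0.571 CPM.

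Among 12 dehydrins, LEA and cold-regulated proteins, which hold water around membranes and proteins, 5 rose and 4 fell, or 2 without replicate 1 at 4 °C. COR410 (DN40128_c2_g5), a dehydrin named after a wheat protein, stood at 115, 84.6 and 135 CPM at 25 °C and 1517, 986 and 1334 CPM at 4 °C (log2 fold change 3.52 ± 0.34). LEA5 (DN52422_c2_g1) went from 69.7, 55.5 and 71.1 to 1681, 839 and 1026 CPM. PCC27-45 (DN56339_c0_g1), a desiccation-related protein, fell from 203 ± 20.6 to 51.9 ± 3.08 CPM. In the upstream list of 10 CBF, DREB and ICE1 factors 4 rose and 5 fell. DREB2B (DN53016_c0_g1), a drought and heat regulator, went from 0.637, 1.33 and 1.14 to 541, 219 and 381 CPM (log2 fold change 8.50 ± 0.59, adjusted p = 8.5e-09), 2.40 ± 0.67 more on the log2 scale than in Fantasy Love. This difference between the cultivars was not called in 8 of the 12 fits that leave out 1 library, with adjusted p of 0.0534 to 0.167 in those. A gene named ICE1 (DN49494_c0_g1), the factor upstream of CBF in Arabidopsis, fell from 22.9 ± 2.77 to 3.50 ± 0.993 CPM and another one (DN39794_c2_g2) rose from 6.75 ± 2.21 to 19.1 ± 3.04 CPM.

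WRKY, NAC and ERF transcription factors rose more often than they fell, against the direction of named genes as a whole. WRKY factors, best known from defence and senescence, rose in 29 of the 59 and fell in 9, with a median of 1.45. WRKY24 (DN46003_c1_g3) went from 15.7, 13.5 and 25.4 to 916, 775 and 723 CPM and WRKY22 (DN34195_c0_g1) from 164, 112 and 125 to 2.35, 1.83 and 1.49 CPM. NAC factors rose in 26 of 55 and fell in 8. NAC48 (DN52010_c1_g3) rose from 107, 88.4 and 93.5 to 2785, 1769.98 and 1985 CPM. NAC029 (DN53939_c0_g2) fell from 55.4 ± 5.89 to 9.67 ± 1.97 CPM while it stood at 91.1 ± 20.98 CPM at 6 °C. ERF and AP2 factors rose in 28 of 71 and fell in 15. ERF5 (DN54839_c0_g1) rose from 68.7, 42.2 and 77.1 to 1575, 1029 and 961 CPM, and RAP2-7 (DN55498_c1_g1), which delays flowering in Arabidopsis, fell from 112 ± 10.9 to 3.51 ± 0.298 CPM. ZAT, CCCH and A20/AN1 zinc finger proteins rose in 26 of 91 (28.6%) and fell in 18 (19.8%), shares near those over all genes. SAP12 (DN55780_c2_g1), a stress-associated protein, rose from 4.46, 5.74 and 4.09 to 609.6, 384 and 559 CPM. SAP8 (DN37599_c0_g2) fell from 324 ± 55.6 to 38.8 ± 4.84 CPM.

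Other transcription factor families fell as often as they rose or more often. In the MYB list 28 of 117 rose and 41 fell, with EFM (DN50376_c0_g1), a flowering repressor in Arabidopsis, rising from 33.1, 24.00 and 28.5 to 359.9, 297 and 309 CPM. The Myb-related protein Hv33 (DN44669_c0_g2) fell from 101 ± 19.2 to 0.771 ± 0.324 CPM. Of 71 bHLH and PIF factors 17 rose and 31 fell, with BHLH62 (DN42341_c0_g1) falling from 118, 167 and 149 to 2.96, 1.31 and 1.71 CPM and AIB (DN42383_c2_g1) rising from 26.3 ± 3.50 to 146 ± 21.03 CPM. Homeobox factors rose and fell equally often, 18 and 18 of 72. HOX16 (DN47981_c0_g1) fell from 669, 647 and 508 to 31.9, 35.8 and 46.5 CPM and ANL2 (DN56621_c1_g4), a factor of the epidermis, rose from 28.4 ± 0.649 to 62.8 ± 12.04 CPM, a call lost without replicate 2 at 4 °C. In the bZIP, GRAS, TCP, GRF and DOF list 30 of 107 rose and 41 fell. BZIP50 (DN41482_c0_g2), whose rice form acts in the unfolded protein response, rose from 36.4, 29.6 and 37.03 to 681, 249.7 and 350.2 CPM and SCL1 (DN47358_c1_g1) fell from 136 ± 3.10 to 37.6 ± 4.61 CPM. Circadian clock and photoreceptor genes fell in 13 of the 32 and rose in 5. The clock genes LNK1 (DN47818_c0_g1), from 291 ± 22.5 to 132 ± 13.8 CPM, and LHY (DN37685_c0_g4), from 217 ± 9.20 to 90.1 ± 22.9 CPM, fell, and APRR5 (DN54996_c0_g2), from 74.9 ± 5.26 to 169 ± 30.6 CPM, rose. With the time of day of collection not given, a change in the level and a shift in the daily rhythm cannot be told apart.

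Among hormone genes, single members of the ethylene and jasmonate lists rose strongly. ACO1 (DN50246_c0_g1), the oxidase that releases ethylene, went from 5.03, 7.37 and 15.4 to 2916, 1160.1 and 953 CPM (log2 fold change 7.50 ± 0.75, adjusted p = 3.9e-07). In its list 4 of 12 rose and 3 fell, the faller with the highest CPM being an oxidase homologue (DN52211_c0_g1), from 335 ± 70.2 to 87.1 ± 5.54 CPM. Ethylene perception genes rose in 4 of 22 and fell in 6. EBF1 (DN46004_c0_g1), which marks the factor EIN3 for breakdown, rose from 46.8 ± 3.23 to 172 ± 39.7 CPM, and CTR1 (DN51406_c1_g1), the kinase that holds the pathway off, fell from 74.1 ± 3.80 to 35.9 ± 6.95 CPM, which was not called without replicate 1 at 4 °C. Jasmonate synthesis rose in 11 of 27 and fell in 6, though only 7 rose without replicate 1 at 4 °C. OPR1 (DN53763_c0_g2) of that pathway rose from 5.59, 7.37 and 7.78 to 145, 135 and 98.1 CPM and the lipoxygenase LOX2.1 (DN55215_c3_g3) fell from 620.4 ± 316 to 112 ± 23.3 CPM. Jasmonate repressors and response genes rose in 18 of 35 and fell in 5. TIFY6B (DN50080_c0_g1), a JAZ repressor, rose from 150.3, 116 and 204 to 702, 347 and 446 CPM and MYC2 (DN49610_c1_g1), the factor JAZ proteins hold back, fell from 132 ± 15.9 to 57.7 ± 6.29 CPM. Salicylate genes rose in 3 of 15 and fell in 6, or in 3 without replicate 3 of the controls, without replicate 1 or without replicate 3 at 4 °C. NPR4 (DN54176_c0_g1), a salicylate receptor, rose from 43.7, 40.4 and 51.3 to 180.5, 175 and 146 CPM and EDS1B (DN40150_c1_g4), which acts upstream of salicylate in immunity, fell from 32.9 ± 6.08 to 11.9 ± 3.13 CPM, a call that no fit without 1 of the 6 libraries kept.

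Abscisic acid synthesis and breakdown rose in 2 of 8 cases and fell in 4. The falls numbered 1 without replicate 3 at 4 °C, and 2 without replicate 1 of the controls or without replicate 1 or 2 at 4 °C. Of the enzymes that inactivate the hormone, CYP707A1 (DN48615_c0_g1) rose from 1.08 ± 0.445 to 19.05 ± 6.96 CPM and CYP707A4 (DN42218_c0_g2) fell from 26.05 ± 4.47 to 0.679 ± 0.268 CPM. Abscisic acid receptors, PP2C phosphatases and SnRK2 kinases rose in 29 of 92 and fell in 22. The PP2C 27 gene (DN49777_c1_g2) rose from 18.5, 22.1 and 24.3 to 184, 212 and 284 CPM and PP2C 5 (DN48189_c1_g1) fell from 241 ± 22.9 to 24.7 ± 4.31 CPM. The lists of growth hormones held more falls than rises. Auxin genes fell in 50 of the 127 and rose in 22, with ABP19A (DN37343_c0_g6) falling from 2315, 2127 and 1481 to 201, 88.8 and 96.5 CPM and SAUR32 (DN40333_c1_g4) rising from 19.3 ± 3.68 to 205 ± 45.5 CPM. Gibberellin genes fell in 15 of 35 and rose in 5. GASA1 (DN38282_c1_g2), a gibberellin-regulated protein, fell from 1951, 883 and 1058 to 2.78, 1.55 and 2.06 CPM, and its 3 control libraries differed widely among themselves. CIGR1 (DN57350_c2_g1) rose from 9.41 ± 1.66 to 333 ± 74.2 CPM. Brassinosteroid genes fell in 10 of 33 and rose in 3, with BZR2 (DN42196_c2_g4) falling from 76.3 ± 1.86 to 12.1 ± 1.73 CPM and BRL1 (DN49687_c0_g1) rising from 1.16 ± 0.926 to 10.3 ± 2.84 CPM. Cytokinin genes fell in 16 of 34 and rose in 5, or in 3 without replicate 1 or without replicate 2 of the controls. The response regulator RR9 (DN49609_c2_g1) fell from 55.96 ± 4.72 to 12.2 ± 1.89 CPM and the receptor AHK3 (DN55953_c1_g1) rose from 117 ± 8.18 to 282 ± 32.5 CPM, a call lost whenever any 1 of the 6 libraries is left out.

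Leucine-rich repeat receptor kinases and pathogenesis-related proteins held more falls than rises, and the calmodulin list more rises than falls. Of 195 leucine-rich repeat receptor kinases 35 rose and 84 fell, with ERL2 (DN55526_c0_g1), which acts in stomatal patterning, falling from 146 ± 18.3 to 12.5 ± 2.54 CPM and a kinase named only by its class (DN50308_c0_g1) rising from 76.2 ± 27.3 to 403 ± 124 CPM. Lectin, wall-associated and cysteine-rich receptor kinases rose in 77 of 236 (32.6%) and fell in 49 (20.8%), shares near those over all genes. CRK11 (DN50394_c0_g1) fell from 309.5, 286 and 261 to 5.01, 13.8 and 8.06 CPM and a G-type lectin kinase (DN57049_c1_g1) rose from 47.2 ± 2.97 to 279 ± 37.3 CPM. Calmodulins, CBL proteins and calcium-dependent kinases, which read calcium signals, rose in 60 of 139 and fell in 26. A calmodulin (DN50507_c0_g2) went from 6.44, 7.31 and 9.19 to 769.7, 565 and 599.9 CPM (log2 fold change 6.40 ± 0.40) and the calmodulin CCM1 (DN57124_c2_g1) from 169.97 ± 17.2 to 645 ± 74.2 CPM. The kinase CIPK24 (DN51091_c0_g2), which controls sodium export in Arabidopsis, fell from 165 ± 22.2 to 28.5 ± 0.354 CPM. Calcium channels, pumps and exchangers rose in 22 of 93 (23.7%) and fell in 20 (21.5%), again near the shares over all genes. The exchanger CAX1a (DN51244_c1_g2) of the vacuole fell from 877, 855 and 837 to 90.7, 97.1 and 90.6 CPM and the pump ACA13 (DN56395_c0_g1) rose from 6.69 ± 3.88 to 197 ± 98.7 CPM. MAP kinases rose in 10 of 39 (25.6%) and fell in 8 (20.5%), also near the shares over all genes. MPK5 (DN54322_c0_g1) rose from 99.8 ± 10.5 to 426 ± 158 CPM and MPK10 (DN53194_c0_g1) fell from 73.96 ± 11.3 to 31.9 ± 2.24 CPM. Pathogenesis-related, chitinase and glucanase proteins fell in 36 of 73 and rose in 18. CTL1 (DN49468_c1_g1), a chitinase-like protein of wall assembly, fell from 3368 ± 332 to 1299.9 ± 103 CPM and an osmotin-like protein (DN45408_c0_g1) rose from 55.6 ± 14.2 to 584 ± 147 CPM.

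Genes of cell expansion and the leaf surface fell more often than they rose. Wall loosening enzymes fell in 65 of 112 cases and rose in 15, with a median of -2.62. XTH30 (DN54999_c0_g3), which cuts and rejoins xyloglucan, fell from 6165, 5683 and 4645 to 386, 219 and 238 CPM, and the pectinesterase PME35 (DN50017_c0_g1) from 790.4, 756 and 720.2 to 1.75, 0.996 and 1.01 CPM. XTH22 (DN56184_c1_g1), a touch-responsive enzyme of the same family, rose from 0.0708, 0 and 0.537 to 141, 19.5 and 36.3 CPM. Cellulose, callose and hemicellulose synthesis fell in 67 of 157 and rose in 15. CESA8 (DN47563_c0_g1) fell from 541 ± 88.1 to 95.98 ± 23.5 CPM and GLCAT14A (DN54765_c0_g1) rose from 13.1 ± 1.10 to 126 ± 27.6 CPM. Cuticle and wax enzymes fell in 67 of 101 and rose in 6, with a median of -2.53. A lipid-transfer protein, LTP (DN56766_c0_g1), fell from 1142, 1096 and 1175 to 118, 123 and 128 CPM. CER3 (DN52908_c1_g1), an enzyme of wax alkanes, rose from 50.03 ± 7.72 to 114 ± 6.71 CPM, against a log2 change of -2.46 ± 0.28 in Fantasy Love. Phenylpropanoid and lignin enzymes fell in 41 of 78 and rose in 6, with CYP73A14 (DN46496_c0_g2), an early step, falling from 498 ± 115 to 135 ± 13.8 CPM and 4CLL7 (DN54989_c0_g1) rising from 10.5 ± 3.07 to 128 ± 48.5 CPM. Cytochrome P450 enzymes fell in 71 of 129 and rose in 15, with CYP94C1 (DN44518_c2_g7), which oxidises a jasmonate in Arabidopsis, falling from 202 ± 15.05 to 9.33 ± 5.21 CPM. The P450 reductase CPR (DN56094_c1_g1) rose from 165 ± 2.11 to 677 ± 224 CPM. UDP-glycosyltransferases rose in 12 of 48 and fell in 19, and terpene and isoprenoid synthesis in 5 and 11 of 27. UGT73C6 (DN57092_c1_g1) rose from 15.4 ± 0.851 to 213 ± 87.5 CPM and a limonoid glucosyltransferase (DN46858_c0_g1) fell from 97.4 ± 9.28 to 1.45 ± 0.400 CPM. CLA1 (DN55342_c1_g1), the entry step of plastid isoprenoids, fell from 1588 ± 112 to 309.9 ± 52.9 CPM and HMGS (DN49846_c0_g2) of the cytosolic route rose from 33.7 ± 5.83 to 88.8 ± 7.90 CPM.

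Histone, replication and cytoskeleton genes fell more often than they rose. Histones and replication genes fell in 36 of the 85 and rose in 13, with a histone H1 (DN54704_c1_g3) falling from 912, 786 and 918 to 23.1, 20.7 and 21.7 CPM. The small chain of ribonucleotide reductase (DN43825_c0_g1), which makes DNA building blocks, went the other way, from 0.142, 0.0604 and 0.0671 to 204, 35.3 and 97.7 CPM. Its log2 change was 8.65 ± 1.82 larger than in Fantasy Love (adjusted p = 0.00574), a call lost without replicate 1 of the Fantasy Love controls. Cyclins and cyclin-dependent kinases rose in 13 of 54 (24.1%) and fell in 17 (31.5%), shares near those over named genes. The kinase inhibitor KRP5 (DN55391_c1_g3), which holds the cell cycle back, rose from 34.6, 36.4 and 32.7 to 411, 410.04 and 373 CPM and CYCP3-1 (DN53500_c0_g2) fell from 245, 344 and 279 to 7.48, 4.58 and 8.19 CPM. Tubulins, actins and kinesins fell in 54 of 150 and rose in 21, with ACT11 (DN55910_c1_g1) falling from 595 ± 87.5 to 217 ± 16.5 CPM and the actin-severing protein ADF7 (DN51747_c0_g2) rising from 47.03 ± 5.26 to 181 ± 3.40 CPM.

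The lists of water, ion, nutrient and ABC transporters held more falls than rises. Aquaporins, the water channels of membranes, fell in 24 of the 37 and rose in 4, and 10 of them were lower at 4 °C than at 6 °C, where 1.32% of all genes were lower. PIP1-2 (DN52877_c3_g1) went from 694, 537 and 589.5 CPM at 25 °C to 553, 459 and 414 CPM at 6 °C and 248, 157 and 193 CPM at 4 °C, and its difference from 6 °C was not called without replicate 2 or 3 at 4 °C or replicate 1 at 6 °C. PIP2-7 (DN33312_c2_g3) rose from 7.18 ± 0.887 to 26.02 ± 5.18 CPM. Nitrogen uptake and assimilation fell in 24 of 53 and rose in 3. The chloroplast glutamine synthetase (DN55633_c0_g1), which binds ammonium, fell from 378, 482 and 419 to 143, 71.3 and 106 CPM and the ammonium transporter AMT3-2 (DN50294_c0_g1) rose from 35.3 ± 14.5 to 156 ± 48.5 CPM. Phosphate and sulphate transport fell in 29 of 64 and rose in 7, with SULTR3;3 (DN51916_c0_g1) falling from 358 ± 38.2 to 21.7 ± 1.93 CPM and SPX1 (DN47102_c1_g1), a phosphate sensor, rising from 67.7 ± 4.66 to 216 ± 99.03 CPM. Potassium, sodium and proton transport fell in 29 of 87 and rose in 13. One proton-pumping pyrophosphatase of the vacuole (DN56613_c0_g3) fell from 1146 ± 31.8 to 255 ± 25.6 CPM and another, AVP1 (DN52932_c1_g1), rose from 62.4 ± 5.93 to 136 ± 7.54 CPM. ABC transporters rose in 20 of 103 and fell in 37, with ABCA2 (DN55501_c1_g1) rising from 97.4 ± 28.7 to 352 ± 83.5 CPM and ABCF1 (DN48979_c1_g3) falling from 1849 ± 134 to 809 ± 227 CPM.

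Some named genes were near absent at 1 temperature. The highest control CPM among named genes that fell was that of a miraculin-like protein (DN56896_c1_g1), of a protease inhibitor family, which went from 16408, 12842 and 15982 to 207, 65.8 and 72.96 CPM. BBE1 (DN54073_c0_g11), named as a reticuline oxidase of alkaloid synthesis, stood at 54.4, 41.9 and 42.9 CPM in the controls and had 0 counts in all 3 cold libraries, at least 997-fold lower against 3 counts over the group. CYP86B1 (DN39692_c0_g7), an enzyme of suberin, was at least 862-fold lower, and CYP78A9 (DN35341_c1_g6), which promotes organ growth in Arabidopsis, at least 744-fold lower. SCL32 (DN49950_c2_g4), a GRAS factor, was at least 268-fold lower. LOL1 (DN34170_c1_g6), which promotes cell death in Arabidopsis, the cysteine protease SAG39 (DN52121_c0_g1), named as specific to senescence, and the mannan-cutting MAN1 (DN56188_c0_g4) were at 11.8, 11.4 and 11.3, at 10.5, 17.6 and 4.83 and at 2.19, 2.72 and 26.4 CPM in the controls, and each had 0 counts in all 3 cold libraries. IMK2 (DN33729_c1_g4), a receptor-like kinase, went from 57.9, 65.3 and 51.1 to 0, 0.0398 and 0 CPM. The LHCII type III protein LHBC (DN42344_c0_g6) went from 859.6, 962 and 726 to 0.905, 0.199 and 0.570 CPM, so among the largest falls stood antenna proteins, wall and P450 enzymes and regulators alike. In the other direction, the 4 genes of highest CPM with 0 counts in all 3 controls and a plant protein hit were named in the table only as uncharacterized or hypothetical proteins. The first of them (DN50417_c0_g3) reached 44.2, 31.04 and 31.02 CPM at 4 °C, at least 519-fold higher. VAMP725 (DN48464_c1_g3), a protein of vesicle fusion, went from 0, 0.0604 and 0 to 49.3, 42.4 and 20.2 CPM. A xyloglucan enzyme, XTH2 (DN47576_c0_g1), went from 0, 0.0604 and 0.0671 to 107, 13.7 and 26.5 CPM and the gene named xlnD (DN57399_c1_g2), a hydroxybenzoate hydroxylase, from 0, 0.0604 and 0.403 to 148, 161 and 109 CPM. In all, 4422 tested genes had 0 counts in the 3 controls, and 2824 of them were called as higher, 454 with a protein name. At 4 °C 1713 had 0 counts and 667 were called as lower, 198 with a name. A gene at 0 counts in 1 group can only be called in 1 direction, and passed the filter on low counts through other groups. More of the groups in that filter were cold groups than controls, so these totals cannot be compared with each other.

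Some genes that share a protein name moved in opposite directions. Of 3263 Swiss-Prot names held by at least 2 tested genes, 1474 had at least 2 called genes, and in 390 of these (26.5%) at least 1 gene rose and 1 fell. In the others the called genes all moved the same way. Such groups can be gene copies, alleles or pieces of 1 transcript, and reads can be shared between them, so each value is uncertain by what the authors' counting assigned. The kinase SAPK7, of the SnRK2 family of abscisic acid signalling, is an example. One group (DN53561_c0_g3) rose from 30.2, 38.7 and 42.8 to 142, 189 and 129 CPM and another of the same assembly cluster (DN53561_c0_g2) fell from 187, 188 and 181 to 50.6, 44.8 and 40.2 CPM. For SAP8, in contrast to the falling group above, DN37599_c0_g1 rose from 57.3, 61.4 and 50.6 to 191, 118 and 142 CPM. The biotin-pathway name BIOF was held by a group that rose (DN50547_c3_g1) from 3.54, 5.44 and 20.9 to 267, 189.7 and 91.98 CPM and by one that fell (DN38984_c1_g2) from 159, 121 and 207 to 6.03, 4.78 and 2.19 CPM. In the urate hydroxylase hpxO, DN57399_c1_g1 rose from 26.05, 21.9 and 27.1 to 254, 239.6 and 175 CPM and DN47369_c0_g2 fell from 190.5, 156 and 153 to 3.62, 7.53 and 6.84 CPM.

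Between 4 °C and 6 °C in Oregon 470 genes were higher (0.910%) and 682 lower (1.32%) at 4 °C. This comparison is sensitive to single libraries: without replicate 3 at 4 °C it gave 73 higher and 109 lower genes, and without any other 1 of the 6 libraries 84 to 361 higher and 163 to 469 lower. Of the 470 higher genes 92 match a vertebrate protein, among them all 31 of the cytosolic ribosomal proteins that were higher. Of the chloroplast ribosomal proteins 4 were higher, with 0 vertebrate matches in that list. One of the 92, EEF1A1 (DN35209_c0_g1), a translation elongation factor, stood at 19.1, 12.6 and 98.8 CPM in the 3 libraries at 4 °C and at 0.0608, 0.396 and 1.34 CPM at 6 °C, with all 3 above 6 °C and replicate 3 far above the other two. The chlorophyll regulator GUN4 (DN45010_c1_g4) was at 41.2, 56.4 and 67.3 CPM at 4 °C and 6.27, 6.57 and 15.4 CPM at 6 °C, higher in each of the 3 libraries. NCED (DN38179_c0_g1), the committed step of abscisic acid synthesis, was at 0.966, 1.35 and 1.01 CPM at 4 °C and 50.9, 61.7 and 15.2 CPM at 6 °C. WRKY71 (DN39870_c0_g3) was at 3.50, 3.15 and 2.10 and 34.98, 68.9 and 63.4 CPM. The calls of EEF1A1, GUN4 and WRKY71 were lost without replicate 3 at 4 °C, and those of EEF1A1 and GUN4 also without replicate 1 or 2 at 6 °C. The amino acid transporter AAP6 (DN52481_c0_g2) was at 1.27, 1.75 and 1.53 and 57.6, 75.2 and 34.9 CPM. Jasmonate synthesis had 7 of 27 members lower at 4 °C than at 6 °C, lectin and related receptor kinases 17 of 236 and ethylene perception 6 of 22, while photosystem subunits had 5 of 42 higher and none lower. The 2 comparisons share the libraries at 4 °C. Of the 14674 genes that rose against 25 °C, 178 were higher and 173 lower at 4 °C than at 6 °C, and of the 10643 that fell, 285 were lower still and 81 higher.

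The change from 25 °C to 4 °C differed between Oregon and Fantasy Love in 2602 genes that were more positive (5.04%) and 1993 that were more negative (3.86%) in Oregon. Leaving out 1 of the 12 libraries gave 1766 to 2324 more positive genes, the fewest without replicate 1 of the Oregon controls, and 1089 to 1445 more negative ones, the fewest without replicate 3 of Oregon at 4 °C. Fantasy Love itself had 14708 rises (28.5%) and 11150 falls (21.6%). Several photosynthesis lists beyond the antenna stood on the positive side of this difference. More positive in Oregon were 12 of 42 photosystem subunits, 12 of 36 electron carriers and 12 of 35 photorespiration enzymes. The counts more negative were 0, 1 and 0. Among chloroplast-encoded proteins only 2 of 50 were more positive and 0 more negative. The cuticle list had 22 of 101 more positive and 3 more negative, and nitrogen genes 13 of 53 and 0. On the other side, lectin and related receptor kinases had 22 of 236 more negative and 9 more positive, NAC factors 8 of 55 and 1, and histones and replication genes 11 of 85 and 4. HSP18 (DN51918_c0_g12), a class I small heat shock protein, was at 0, 0 and 0.134 CPM in Oregon controls and 23.2, 18.3 and 42.99 CPM in the cold, and at 0.498, 0.109 and 3.06 and 1.46, 1.12 and 1.25 CPM in Fantasy Love. ERF1B (DN34699_c0_g3), an ethylene response factor, was at 6.94, 5.08 and 2.68 and 11.6, 22.7 and 13.1 CPM in Oregon and at 8.19, 24.6 and 17.7 and 0.330, 0.320 and 0.0832 CPM in Fantasy Love. A pathogenesis-related protein R (DN50193_c1_g1) fell in Oregon from 1092, 229 and 758 to 1.57, 4.06 and 2.19 CPM. In Fantasy Love it stood at 0.221, 0.489 and 0 CPM at 25 °C and 0.283, 0.480 and 2.95 CPM at 4 °C, and the difference between the cultivars was -10.37 ± 1.28 (adjusted p = 9.3e-05). BURP3 (DN52379_c0_g2) was at 482, 396 and 376 and 7.36, 3.19 and 6.44 CPM in Oregon. In Fantasy Love it was at 0.0554, 0.109 and 0 and 0, 0.107 and 0.541 CPM. Its difference between the cultivars was not called without replicate 3 of Fantasy Love at 4 °C. At 25 °C protein R and BURP3 were near the limit of detection in Fantasy Love, so a fall could not be seen there.

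**Figure D5:**
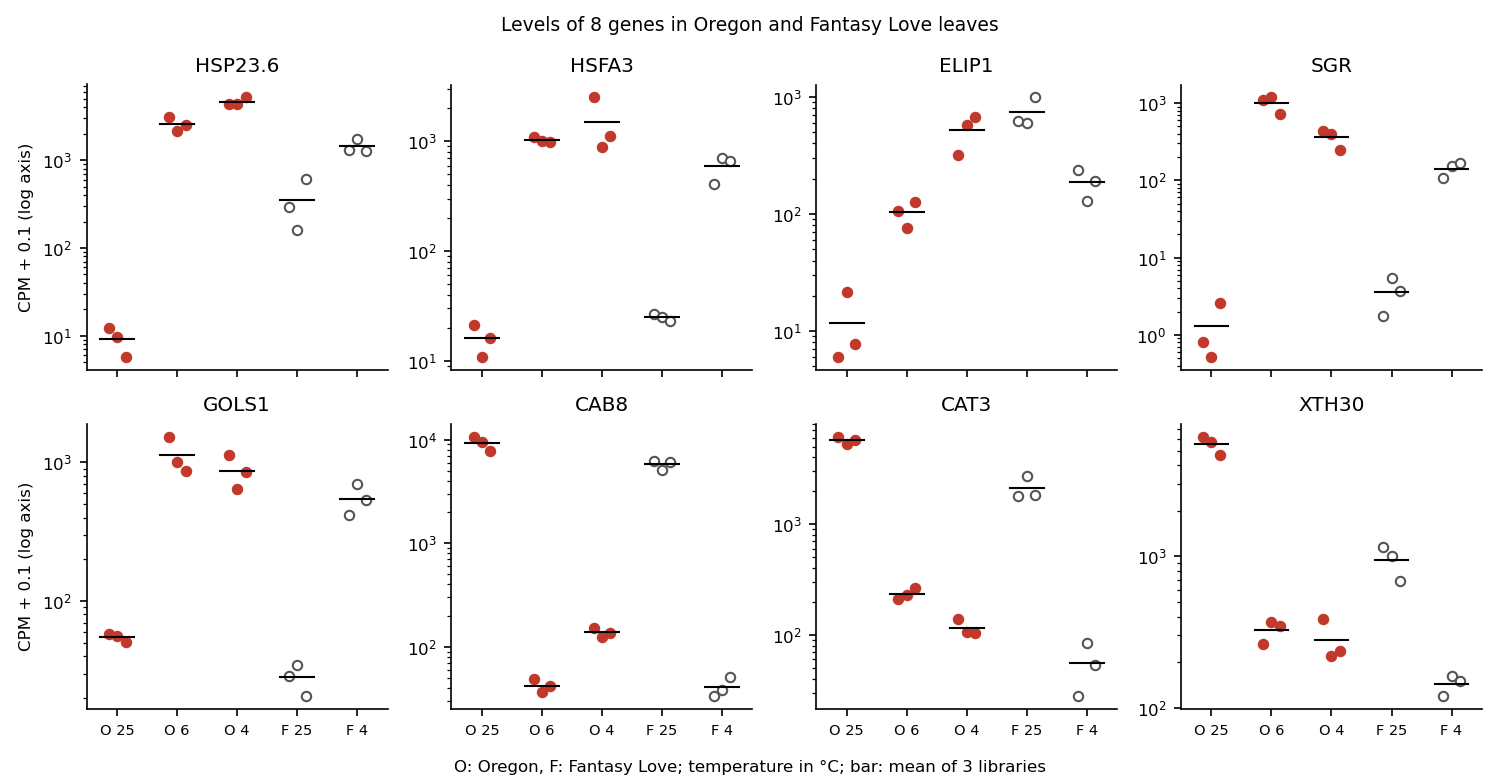
Level in each library (CPM + 0.1, log axis; 1 point per library, bar at the mean) of 8 genes named in the text, in Oregon at 25, 6 and 4 °C and in Fantasy Love at 25 and 4 °C. HSP23.6 and ELIP1 stand higher in the Fantasy Love controls than in the Oregon controls, SGR is low in the controls of both cultivars, and CAB8, CAT3 and XTH30 are higher in the controls than in the cold in both.

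Markers of other cell types and genes of mobile elements are given here as measured, and their part in the results above was not tested. Guard cell markers fell in 8 of the 18 and rose in 2, and their summed level ran from 123 to 135 CPM at 25 °C and from 144 to 158 CPM at 4 °C. At a minimum of 50 counts 2 fell. Of these markers 2 had 0 counts in all controls and 3 in all libraries at 4 °C, while none of the phloem, xylem, epidermis and flower organ markers had 0 counts throughout either group. EPFL6 (DN47530_c0_g3), a secreted peptide of stomatal patterning, fell from 58.7 ± 4.23 to 3.89 ± 0.402 CPM and SCAB1 (DN55933_c3_g1), an actin protein of stomatal closure, rose from 26.4 ± 1.74 to 124 ± 8.55 CPM. Of 6 phloem markers 1 rose and 2 fell, with summed levels of 85.5 to 109 CPM at 25 °C and 131 to 170.2 CPM at 4 °C. Of 7 xylem markers 1 rose and 3 fell, with 558 to 632 and 102 to 155 CPM, and 6 fell in a fit of these 2 groups alone. Of 4 epidermis markers 2 rose and 2 fell, with 36.4 to 50.5 and 71.03 to 84.8 CPM, and of 15 flower organ markers 1 rose and 5 fell, with 471 to 588 and 162 to 213 CPM. Genes named like retrotransposons and other mobile elements, 1012 in all, rose in 369 cases and fell in 111, with a median of 1.46, and their summed level ran from 1621 to 1928 CPM at 25 °C and from 2587 to 2865 CPM at 4 °C. At a minimum of 50 counts 190 of them rose and 70 fell. One of them (DN49740_c0_g1) rose from 1.84, 1.33 and 2.42 to 163, 66.1 and 70.7 CPM and another (DN32211_c0_g2) fell from 103, 130.1 and 130.01 to 0.784, 0.518 and 0.964 CPM.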

How the data were processed

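RNA of Anthurium leaves was sequenced in 18 libraries, 3 for each of 2 cultivars at 3 temperatures. The authors deposited 1 table with estimated counts and TPM values for each assembled transcript group, with Swiss-Prot and best-hit protein names. The submitters' processing notes name cutadapt 1.9, and the sources used here give no version of the assembler or the quantifier. The deposited estimated counts, of which 4.21% of values were not whole, were rounded. The deposited TPM values were not used, since they keep no depth. Genes were kept by edgeR's filterByExpr (minimum count 10, minimum total 15), scaled by TMM and tested with edgeR 4.0.16 (R 4.3.3) quasi-likelihood in 1 fit of all 18 libraries with 6 group means. A call needs a Benjamini-Hochberg adjusted p below 0.05 over all genes and a log2 fold change of at least 1. Standard errors are the log2 fold change over the root of its F. CPM use TMM-scaled library sizes. Totals were 14769978 to 21911157 counts per library.

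The 90 gene lists hold genes whose protein name contains fixed words. Members and lists were chosen with earlier results of these data known. For each list the first and next called genes by mean CPM in the higher group were taken in each direction (at least 10 CPM, groups not overlapping), together with the 12 largest changes each way, the 4 highest genes at 0 in the other group and the 4 highest called genes. Genes named for 4 °C against 6 °C or for the cultivar difference, and those sharing a protein name, were chosen after their values were seen. Alternatives used DESeq2 1.42.0 size factors and Wald test, quantile normalisation with limma 3.58.1, other filters, no fold minimum, the compared groups alone, plant hits alone, 1 library fewer and the replicate number as a block. The fitting script was tested on simulated counts. Figures were drawn with matplotlib 3.10.9. No sequence is printed, as none was used here.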

Additional observations from a re-analysis of the deposited data

Results flagged for a closer look

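The genes below are named in the report and were set apart because their change from 25 °C to 4 °C differed between the cultivars. Each value is the log2 change in Oregon minus that in Fantasy Love, called by edgeR's test of that difference at an adjusted p below 0.05 and a size of at least 1. No explanation was tested for any of them.

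Among chaperones and their factors the difference was 9.02 for HSP18, 8.01 for HSP17.5-M, 6.95 for HSP23.6, 5.58 for HSP26.7 and 4.83 for HSP21.9. It was 3.53 for CLPB1, 3.27 for the rising HSP70, 1.91 for DNAJ1 and 1.996 for HSFA3, while HSFA1 stood at -2.85.

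In the chloroplast ELIP1 differed by 7.46, CHLH by 2.28, RCA by 2.21, RH3 by 2.03 and the glutamine synthetase by 2.04. Smaller differences were 1.94 for the ferredoxin AP1, 1.81 for AGT1, 1.81 for the dikinase R1, 1.60 for the thioredoxin M, 1.58 for ALDP and 1.55 for PKP2. Those of RPL4, PNSL5, FTSH1, PSY and the phosphorylase were 1.31, 1.27, 1.08, 1.04 and 1.03. The values of this paragraph were all more positive in Oregon, and CLA1 of plastid isoprenoids was as well, at 2.14. Of the chloroplast proteins given in the other paragraphs here, LOX2.1 stood at -2.52, FAD7 at 2.41 and HSP26.7 at 5.58.

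In metabolism and redox genes PUMP4 differed by 4.81, APX1 by 2.49, TPPG by 2.21, FBA3 by 2.17 and GSTU17 by 2.01. NDA2 stood at -1.32. In lipids and the surface the values were 3.64 for CER3, 3.36 for 4CLL7 and 2.41 for FAD7, and in the cytochrome P450 CYP78A9 -6.40. The oxidase homologue of the ethylene list was at -1.64, the polyamine transporter at -1.71 and the desiccation-related PCC27-45 at -1.44.

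Hormone and signalling genes went both ways. The more positive ones were ABP19A at 3.44, OPR1 at 2.67, SAUR32 at 2.43, the calmodulin at 2.88, PP2C 27 at 1.91 and ERL2 at 1.99. More negative were CIPK24 at -2.87, LOX2.1 at -2.52, CAX1a at -2.41, BZR2 at -1.10 and the SAPK7 genes at -2.01 and -1.06.

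Among transcription factors and stress-associated proteins the differences were 7.79 for ERF1B, 2.91 for SAP12, 2.40 for DREB2B, 1.33 for the rising SAP8 and 1.24 for APRR5. NAC029 stood at -3.35, HOX16 at -1.70 and SCL1 at -1.31. In division and transport the ribonucleotide reductase chain differed by 8.65, VAMP725 by 5.88, KRP5 by 2.92, SULTR3;3 by 1.82 and AVP1 by 1.68. AAP6 stood at -3.51, ABCA2 at -1.93 and the ribosomal RPL34 at -2.20. The vacuolar processing enzyme was at 2.15, the rising retrotransposon-like gene at 3.36 and hpxO at 1.41. The pathogenesis-related protein R was at -10.37, BURP3 at -8.09 and the falling BIOF gene at -6.27. Protein R and BURP3 were near the limit of detection in the Fantasy Love controls, so a fall could not be seen there.

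Of these calls 19 were lost in at least 1 of the 12 fits that leave out 1 library each. The smaller SAPK7 difference was lost in 12, those of BZR2 and the polyamine transporter in 10, that of HSFA3 in 9, those of CYP78A9, DREB2B, PCC27-45 and the larger SAPK7 difference in 8 and that of hpxO in 7. ABP19A lost its call in 5, the rising SAP8 and the oxidase homologue in 4, FTSH1, PSY and the phosphorylase in 3 and PP2C 27 in 2. NDA2, BURP3 and the ribonucleotide reductase chain each lost it in 1. The calls of the other genes given here held in all 12.

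The remaining result comes from genes named as animal blood proteins. Apart from the filter on low counts, nothing took such genes out of the main fit. Genes named as hemoglobin subunits took 59302 counts in replicate 3 of Oregon at 4 °C, above the 0 to 113 counts in each of the other 17 libraries. The source of these counts was not tested.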

How the results depend on the processing

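For 4 °C against 25 °C the counts of genes and of list members kept within 1.5 times of the reported ones under most alternatives. The exceptions were 8472 higher genes at a minimum of 50 counts in 3 libraries, and 6212 higher and 5958 lower genes when the tested genes were limited to those with a plant protein hit, 2 settings that test fewer genes. Leaving out 1 library gave 12178 to 13501 higher and 9948 to 10306 lower genes. For 4 °C against 6 °C the counts were 949 and 1248 under quantile normalisation with limma, 799 and 1415 under the DESeq2 Wald test and 1271 and 2463 in a fit of the groups compared alone. Without 1 library they ranged from 73 to 361 and from 109 to 469. For the cultivar difference they were 4169 and 3938 under quantile normalisation, 4220 more positive genes under the DESeq2 Wald test, 1316 more negative ones with no filter, and 4574 more positive ones with the groups compared alone, and 1089 to 1445 more negative ones without 1 library. The cause of these moves was not tested. No fit left out a single library of Fantasy Love at 6 °C, where replicate 2 had the fewest genes with a count, 59670. That group was absent only from the fits of the groups compared alone. Of the 225 genes named in the text, 195 kept direction and call in every alternative run, and 1 reversed: RCA (DN56471_c1_g2) was at 0.39 under quantile normalisation with limma in place of -1.40. The 95 single losses of a call were most frequent with the plant protein hit alone (18) and quantile normalisation (14). With the replicate block the counts were 14080 and 10353 against 25 °C, 339 and 521 against 6 °C and 2261 and 1665 between cultivars, and it lost 1 call among the genes named. The numbers are not shown to pair libraries, since over 18 pairs of the same number within a cultivar the residual correlations were -0.07 to 0.10. Of the list counts of 5 or more, those with DESeq2 size factors, quantile normalisation, other filters or 1 library fewer that moved over 1.5 times include ERF falls (9 at the minimum of 50 counts), clock rises (3), glycolysis falls (3 under quantile normalisation), starch breakdown falls (4) and sucrose and trehalose falls (7) with plant hits alone. List counts below 5 moved by 1, and by over 1.5 times, in 28 cases over 7 lists without 1 library. With no fold minimum calls rose to 15862 and 12176. Leaving out genes matched to vertebrates, chosen after seeing the data, left 14470 and 10418.

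Depth limits the lowest genes: a fold against a group at 0 counts is a bound set at 3 counts over the group. Libraries were 3 a group, and the time in the cold, the temperature and the collection day cannot be told apart.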
